A study of Mus musculus with 2 samples.

Results

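Hapln1 and 9 other genes that make, bind or degrade the hyaluronan matrix were measured in single lung cells of neonatal mice raised in room air or in hyperoxia. The 10 genes (Hapln1, Vcan, Has1, Has2, Has3, Cd44, Lyve1, Hyal1, Hyal2 and Tnfaip6) were listed by name, and all 10 were found among the 27998 genes counted in both libraries. Hapln1 was chosen because its count rose in endothelial cells in hyperoxia, so it was selected on measured values. Its ratios between the libraries therefore describe that choice and support nothing else.

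The study compared lungs of C57BL/6 mice at 2 weeks of age by droplet single-cell RNA sequencing, to describe a model of bronchopulmonary dysplasia. The Room Air group breathed 21% oxygen and the Hyperoxia group 80% oxygen from day 0 to day 14. Each group was 1 library in which cells of 8 mice were pooled, so the spread between animals is unknown and the groups could not be tested. The Room Air library held 39593888 unique molecular identifiers (UMIs) in 4234 barcodes and the Hyperoxia library 111934936 UMIs in 13223 barcodes.

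After cell filters and removal of 129 and 1239 likely doublets, the Room Air library kept 3680 cells and the Hyperoxia library 10472, with medians of 8070.5 and 7266.5 UMIs. The libraries shared 17 barcode sequences, 12 of them among the cells kept. Levels are given as UMIs of a gene per 1000000 UMIs of a class of cells (CPM), and all intervals are exact 95% intervals for counting error only. Where a count was 0, the limit given is the level or share of 3 counts. The UMIs were counted at the 3′ end of transcripts, so that CPM did not scale with transcript length, and levels of different genes were set side by side only as such counts.

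Hyaluronan is a long, unbranched sugar polymer that synthases of the plasma membrane extrude into the matrix. Link proteins fasten large proteoglycans such as versican to the polymer, surface receptors bind and take it up, and hyaluronidases cut it into fragments. In the lung it surrounds vessels and airways, and its turnover is known to change in injury.

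The genes lie on 7 chromosomes in the mouse genome build GRCm38 (mm10), with gene models from GENCODE M21. Hapln1 (ENSMUSG00000021613) spans positions 89539796 to 89611652 on the plus strand of chromosome 13. Vcan (ENSMUSG00000021614) follows on the minus strand from 89655312 to 89742509, with 43659 bases and 0 protein-coding genes between them. Hyal2 (ENSMUSG00000010047), from 107567945 to 107572779 on chromosome 9, and Hyal1 (ENSMUSG00000010051), from 107576927 to 107581710, are likewise neighbours, 4147 bases apart.

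The remaining 6 genes were spread over 5 chromosomes. Cd44 (ENSMUSG00000005087) runs from 102811141 to 102901665 on chromosome 2, and Tnfaip6 (ENSMUSG00000053475) from 52038009 to 52056686 on the same chromosome. Has1 (ENSMUSG00000003665) lies on chromosome 17 from 17843323 to 17855205, and Has2 (ENSMUSG00000022367) on chromosome 15 from 56665627 to 56694539. Has3 (ENSMUSG00000031910) spans 106870242 to 106884566 on chromosome 8, and Lyve1 (ENSMUSG00000030787) 110850607 to 110863239 on chromosome 7. Among named genes, Has2 overlaps the antisense gene Has2os, Has3 overlaps Chtf8, and Hyal1 overlaps Naa80 and Hyal3.

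Cells were grouped again from the counts, and each class is called by the type whose markers it held. The members and the other listed hyaluronan genes did not enter the clustering. Endothelial-like cells (ECs) numbered 1042 in room air and 2583 in hyperoxia, with medians of 7198.5 and 8015 UMIs per cell. All 8 EC markers were detected in both libraries, with summed levels of 12080 CPM (12079.7) and 12803 CPM (12802.6). Within the ECs, general capillary cells (gCap-like), aerocytes of the gas-exchange surface (aCap-like), artery-like and vein-like cells were compared.

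Some classes lay in different clusters in the libraries. Of the gCap-like cells, 511 of 685 in room air were in EC cluster 1, whereas 480 of 1057 in hyperoxia were in EC cluster 2 and 308 in EC cluster 5. Of the aCap-like cells, 78 of 147 in room air were in EC cluster 3 and 533 of 1110 in hyperoxia in EC cluster 0. The artery-like and vein-like cells of both libraries shared EC clusters 6 and 9. With 1 library per group, a cluster filled mostly by 1 library may be that library and not a cell type.

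Link protein 1, the product of Hapln1, locks versican and other proteoglycans onto hyaluronan. In the ECs Hapln1 had 132 UMIs in room air, or 16.0 CPM (13.4 to 18.9), and in hyperoxia 2916 UMIs at 141 CPM (136 to 146). Hyperoxia divided by room air gave a ratio of 8.81 (7.40 to 10.6), or 3.14 on the log2 scale. ECs held 76.7% of the 172 Hapln1 UMIs of all kept cells in room air and 94.0% of the 3102 in hyperoxia, so in both libraries most Hapln1 transcripts came from the endothelium.

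The aCap-like cells were the main holders of Hapln1 in both libraries, with 66.9% and 69.3% of its UMIs. From 115 UMIs in room air their level was 98.4 CPM (81.3 to 118), and from 2150 UMIs in hyperoxia it was 253 CPM (242 to 264). The ratio of 2.57 (2.13 to 3.13) was smaller than that over all ECs. Each aCap-like cluster had more Hapln1 in hyperoxia. In room air and hyperoxia cluster 0 had 116 and 235 CPM, cluster 3 had 86.0 and 293 CPM, and cluster 4 had 101 and 234 CPM. The room air value of cluster 4 rested on only 5 UMIs in 36 cells.

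In the vein-like cells, which both libraries held in 1 shared cluster, Hapln1 went from 13.999 CPM (4.55 to 32.7) to 332 CPM (303 to 363). The room air value rested on 5 UMIs in 4 of 32 cells, and the hyperoxia value on 477 UMIs in 84 of 112 cells. The ratio was 23.7 (10.1 to 73.3), and whether the vein-like cells of the libraries come from the same kind of vein is unknown. Their vein markers, 7 of 8 detected in each library with Ackr1 at 0, summed to 10407 CPM (10406.8) and 8664 CPM (8663.8). Hyperoxia vein-like cells had the highest level of Hapln1 among all compared classes, above the aCap-like cells of the same library beyond counting error.

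The gCap-like cells had 6 UMIs of Hapln1 in room air, or 1.23 CPM (0.453 to 2.68), and in hyperoxia 198 UMIs at 24.5 CPM (21.2 to 28.1). This was a ratio of 19.8 (8.95 to 54.7), between libraries that filled different gCap-like clusters. Its log2 value of 4.31 was 3.47 (2.45 to 4.72) with double the doublets removed. In hyperoxia the level was 52.0 CPM of Hapln1 in cluster 5 and 3.39 CPM in cluster 2, the 2 clusters that held most of these cells. Cluster 7, which both libraries shared (66 and 140 cells), had 0 UMIs of Hapln1 in room air and 10 UMIs, 48.7 CPM, in hyperoxia, with vein markers at 296 and 1071 CPM (1071.2), 7 of 8 detected in each library. Most Hapln1 UMIs of the class, 169 of 198, lay in cluster 5. Over all gCap-like cells the 8 vein markers summed to 307 and 526 CPM, with 7 of 8 detected in each library, Ackr1 at 0 and Ackr3 the most abundant. In hyperoxia they summed to 865 CPM in cluster 5, with 7 of 8 detected, and to 255 CPM in cluster 2, with 6 of 8 detected and Slc6a2 and Ackr1 at 0. Within some clusters the vein sum was lower in hyperoxia while Hapln1 was higher. In cluster 8 (88 and 106 cells) the sum was 574 and 411 CPM, with Hapln1 at 0 and 9.63 CPM. Cluster 1 (511 and 23 cells) had vein sums of 286 and 212 CPM, with Hapln1 at 1.36 and 10.3 CPM. In cluster 5, with only 7 room air cells, the room air sum was 1084.5 CPM. The part of vein-like cells in this Hapln1 was not tested.

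Artery-like cells had 0 UMIs of Hapln1 in 95 room air cells, which allows up to 3.75 CPM (3 UMIs), and 1 UMI in 159 hyperoxia cells. No ratio was taken, since both counts lay at or under 3 UMIs. In hyperoxia Hapln1 was thus at the detection limit in artery-like cells, while vein-like and capillary cells of the same library carried it.

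Because aCap-like cells gave 14.1% (room air) and 41.0% (hyperoxia) of the EC UMIs, the EC-wide ratio mixed the level within each class with the makeup. When each EC class was weighted as in room air, the hyperoxia level of Hapln1 was 74.4 CPM and its ratio 4.66, in place of 141 CPM and 8.81. With the classes weighted as in hyperoxia, the room air level was 42.2 CPM, in place of 16.0 CPM. The direction was upward in the aCap-like, gCap-like and vein-like cells alike, at log2 ratios of 1.36, 4.31 and 4.57.

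**Figure D1:**
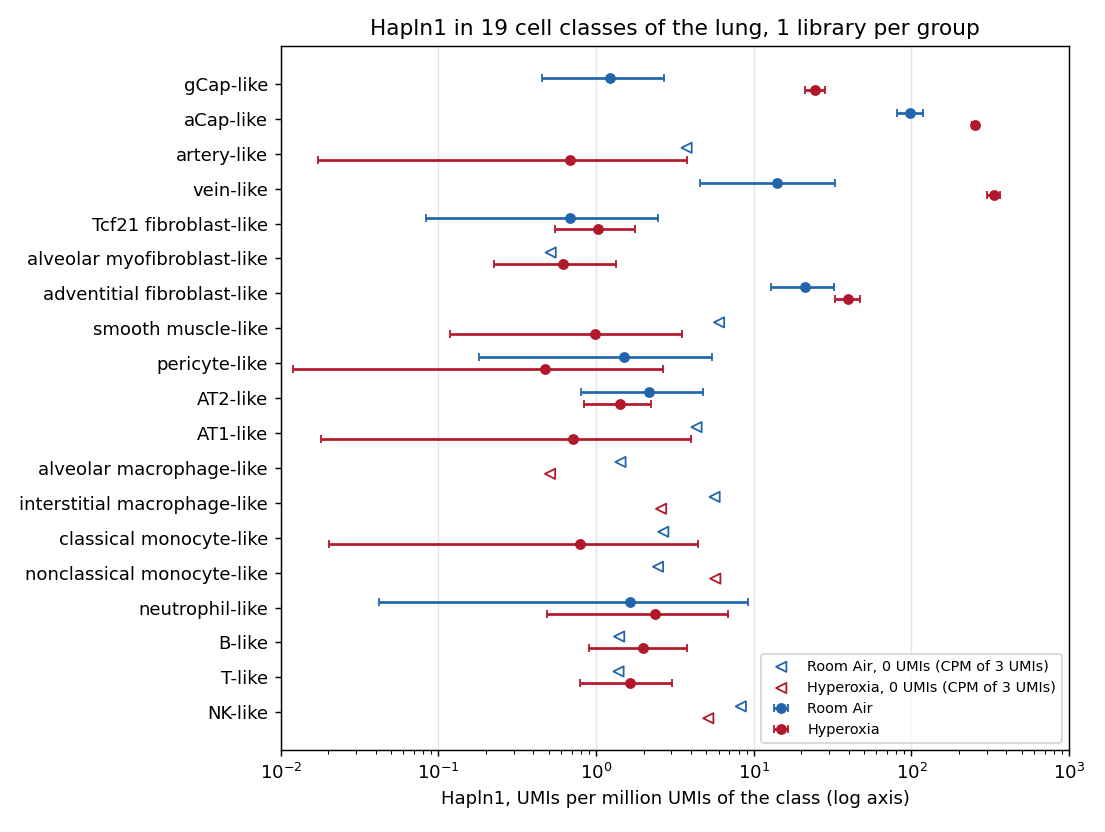
Level of Hapln1 in 19 cell classes that had at least 30 cells in both libraries, in UMIs per 1000000 UMIs of the class on a log axis, for room air (blue) and hyperoxia (red). Bars are exact 95% Poisson intervals for counting error, and open triangles mark the level of 3 UMIs in classes with 0 UMIs. The highest levels are those of vein-like (332 CPM) and aCap-like (253 CPM) cells of hyperoxia, followed by aCap-like cells of room air (98.4 CPM).

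Ordered by level, the groups with Hapln1 above 10 CPM were vein-like and aCap-like cells in hyperoxia, aCap-like cells in room air, adventitial fibroblast-like cells in hyperoxia, gCap-like cells in hyperoxia, and adventitial fibroblast-like and vein-like cells in room air. The intervals of the last 2, 12.8 to 32.5 and 4.55 to 32.7 CPM, overlapped, and that of gCap-like cells in hyperoxia, 21.2 to 28.1 CPM, lay within the range of the former. All other named cell types with at least 30 cells had under 10 CPM of Hapln1. Among the unnamed EC clusters, the platelet-led cluster 11 (54 cells) had 158 CPM and the dividing cluster 10 (39 cells) 28.0 CPM in hyperoxia. The red-cell-led cluster 13 (25 cells) had 134 CPM of Hapln1 there.

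Adventitial fibroblast-like cells gave most of the Hapln1 of the stroma, but from few cells. All 20 UMIs in room air, 21.0 CPM, were in 1 of 52 cells, and of the 120 UMIs in hyperoxia, 39.7 CPM, 90 were in 2 of 241 cells. All 20 UMIs of room air and 118 of the 120 in hyperoxia lay in stromal cluster 5 (36 and 180 cells). Its leading genes included the cartilage collagens Col2a1 and Col9a1 and aggrecan (Acan), all 3 named after their values were seen. In the ECs these 3 cartilage genes summed to 0.121 CPM (room air) and 0.868 CPM (hyperoxia), and to 0 in the vein-like cells of both libraries, so the ECs held little of these genes beside Hapln1.

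The share of cells with at least 1 Hapln1 UMI moved with its level. Among aCap-like cells it was 29.3% (43 of 147) in room air and 42.6% (473 of 1110) in hyperoxia, and among all ECs 5.37% and 25.8%. B-like cells, which should lack Hapln1, showed 0 of 410 cells in room air, which allows up to 0.732% (3 cells), and 0.588% of 1360 cells in hyperoxia, at medians of 4496 and 2918 UMIs. The room air share in gCap-like cells, 0.730% at a median of 6999 UMIs, was not above that limit, whereas the hyperoxia share of 7.47% at a median of 7995 UMIs was above the share in B-like cells of the same library.

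With every cell thinned to 2000 UMIs, the Hapln1 share was 13.8% and 28.9% in aCap-like cells, leaving out 31 and 204 shallower cells. In all ECs it was 2.01% and 16.1%, leaving out 146 and 408 cells. At 1000 UMIs the aCap-like shares were 8.27% and 17.3%, leaving out 14 and 89 cells, and the EC shares 1.12% and 9.11%, leaving out 56 and 179 cells. Hyperoxia thus had the higher share of Hapln1-positive cells at each depth.

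Vein-like cells had a Hapln1 UMI in 12.5% of cells (3.51% to 29.0%) in room air and in 75.0% (65.9% to 82.7%) in hyperoxia. Thinned to 2000 UMIs the shares were 0 of 32 cells and 40.5% of 111 cells, with 0 and 1 cells left out. Only 32 room air cells of this class were available, and 0 of 32 allows up to 9.38% (3 cells).

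Transcripts of Hapln1 were unevenly spread among aCap-like cells. At least 5 UMIs were found in 4 of 147 cells in room air and in 143 of 1110 cells in hyperoxia, and the highest cells had 20 and 75 UMIs. The upper 10% of aCap-like cells held 68.7% (room air) and 59.7% (hyperoxia) of the Hapln1 UMIs. In hyperoxia vein-like cells, 39 of 112 cells had at least 5 UMIs.

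**Figure D2:**
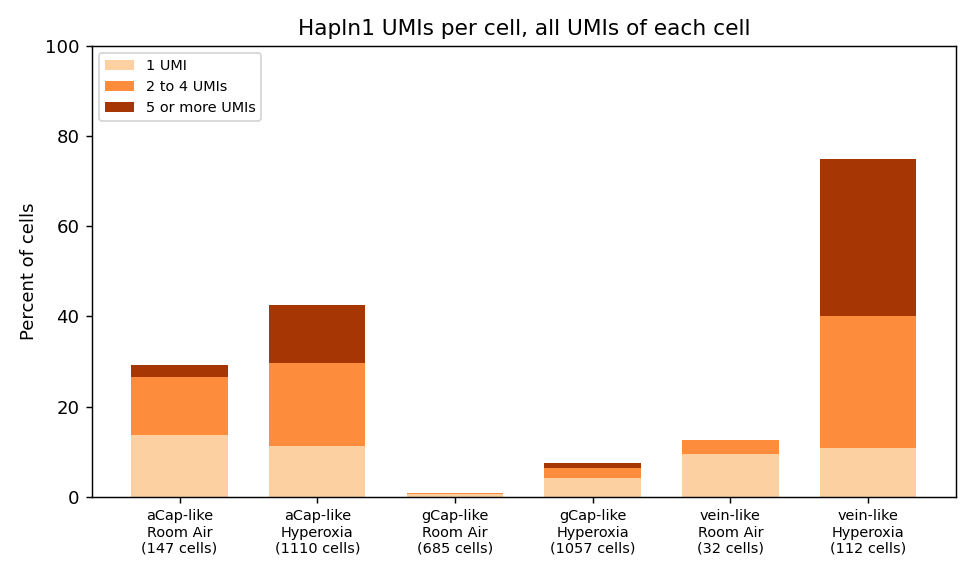
Percent of aCap-like, gCap-like and vein-like cells with 1, 2 to 4, or 5 or more UMIs of Hapln1 in each library, from all UMIs of each cell. The stacked bars reach 29.3% and 42.6% in aCap-like cells, 0.730% and 7.47% in gCap-like cells and 12.5% and 75.0% in vein-like cells of room air and hyperoxia.

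Markers of other cell types were present in the ECs at low levels. All 8 stromal markers were detected in both libraries, with summed levels of 767 and 1014 CPM, mostly Mgp at 476 and 831 CPM, a gene that arteries also express. Of the 8 epithelial markers, all were detected, summing to 1387 and 561 CPM, mostly Sftpc at 1288 and 525 CPM. The 8 myeloid markers, all detected, summed to 246 and 111 CPM with Lyz2 the most abundant at 173 and 68.1 CPM. The lymphoid markers summed to 17.1 CPM with 7 of 8 detected and Il2rb at 0 in room air, and to 16.9 CPM with 8 of 8 detected in hyperoxia, with Cd79a the most abundant at 5.44 and 5.02 CPM. Red cell genes, 6 of 6 detected, summed to 1709 and 1405 CPM, with Hbb-bs the most abundant, and platelet genes, 4 of 4 detected, to 69.1 and 30.7 CPM, with Ppbp the most abundant.

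Among these 6 lists only the stromal sum was higher in hyperoxia. Mgp alone rose by more than this sum did, so the other stromal markers together were lower. In the 396 room air and 880 hyperoxia ECs without a UMI of 6 stromal genes (Col1a1, Col1a2, Col3a1, Mfap4, Dcn and Pdgfra), the log2 ratio of Hapln1 was 3.18, against 3.14 in all ECs. In aCap-like cells the epithelial sum was 493 CPM in both libraries, with Krt8 at 0 in room air. It was higher in hyperoxia in gCap-like cells, at 382 and 677 CPM with 8 of 8 markers detected, and in vein-like cells, at 227 and 385 CPM with 6 of 8 detected, in each case mostly Sftpc. The lymphoid sum in vein-like cells was 2.80 CPM in room air, with 1 of 8 markers detected (Cd79a), and 37.5 CPM in hyperoxia, with 8 of 8 detected and Cd79a the most abundant. In vein-like cells the stromal sum was 3071 and 1285 CPM, mostly Mgp, with 6 of 8 markers detected in room air, where Pdgfrb and Dcn were at 0. The part of free RNA in the other members' values was not tested.

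The summed levels of EC marker lists differed in direction between classes. In aCap-like cells the 8 aCap markers, all detected, summed to 10049 CPM (10048.9) under room air and 5999 CPM under hyperoxia, with Emp2 the most abundant. In vein-like cells the aCap list summed to 512 and 350.4 CPM, with 7 and 8 of the 8 markers detected. The fall in vein-like cells lay mostly in Ednrb, at 308 and 140 CPM (139.75), while Apln had 19.6 and 90.4 CPM there. In gCap-like cells the aCap list summed to 457 and 815 CPM, higher in hyperoxia as Hapln1 was. In aCap-like cells the gCap list summed to 1952 CPM (1951.7) and 2687 CPM (2686.7), with Sema3c the most abundant at 568 and 1578 CPM. The vein list, with 5 and 7 of 8 markers detected and Ackr3 the most abundant at 56.5 and 196 CPM, summed there to 120 CPM (119.84) and 227 CPM. The sums of the gCap and vein lists were thus higher in aCap-like cells of hyperoxia, as Hapln1 was, and that of the aCap list was lower. Sema3c and Ackr3 each rose by more than the sum of their list, so the other gCap and vein markers together were lower.

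Genes most like Hapln1 were found by Pearson correlation of log2(CPM + 1) over 40 groups, each a cell type of 1 library, among 13365 genes. The 8 highest were Tmeff2 (r = 0.84), Gm43194 (0.82), Apln (0.78), Prx (0.75), Edil3 (0.75), Ces2e (0.74), Has2 (0.73) and Ackr2 (0.72). Apln and Prx were also among the markers that named aCap-like cells, and groups of the same library share its depth and free RNA. Edil3, which encodes a matrix protein of endothelial cells, had 295 and 289 CPM in aCap-like cells and did not share the difference between libraries seen for Hapln1. Nor did Tmeff2 (47.1 and 47.6 CPM), Gm43194 (78.8 and 44.8 CPM), Apln (716.5 and 597 CPM) or Ackr2 (129 and 77.4 CPM). Higher in hyperoxia in these cells were Prx (654 and 777 CPM), Ces2e (5.14 and 27.2 CPM) and Has2 (4.28 and 13.1 CPM). Among the members other than Has2, r with Hapln1 was 0.54 for Hyal2, 0.53 for Lyve1, 0.48 for Hyal1, 0.17 for Has1, 0.03 for Tnfaip6, -0.01 for Vcan and -0.48 for Cd44.

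Versican, the product of Vcan, is a large proteoglycan that binds hyaluronan at its head and is held there by link protein. It was mainly a stromal transcript: stromal-like cells held 91.5% of 2493 Vcan UMIs (room air) and 88.2% of 8257 (hyperoxia). Its level there was 198 CPM and 246 CPM, a ratio of 1.24 (1.19 to 1.30). In the ECs, where Hapln1 was high, Vcan had only 5.20 and 5.36 CPM. Most UMIs of Hapln1 and Vcan thus lay in different lineages, although adventitial fibroblast-like cells held both.

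Within the stroma, Vcan was compared by class. Adventitial fibroblast-like cells had 346 and 366 CPM, Tcf21 fibroblast-like cells 263 and 285 CPM, smooth muscle-like cells 265 and 334 CPM and alveolar myofibroblast-like cells 173 and 189 CPM of Vcan. The ratios in these 4 classes ran from 1.06 to 1.26, and pericyte-like cells, at 33.8 and 22.8 CPM, had a ratio of 0.674 (0.440 to 1.04). Tcf21 fibroblast-like cells lay in stromal cluster 9 in room air (163 of 172) and mainly in stromal clusters 0 and 1 in hyperoxia (1019 of 1044), and alveolar myofibroblast-like cells most often in stromal clusters 6 and 2. The myofibroblast ratio covered unlike clusters: stromal cluster 3 (145 and 156 cells) had 68.1 and 172 CPM of Vcan, and stromal cluster 4 (77 and 152 cells) 366 and 326 CPM.

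Classical monocyte-like cells, which shared 1 myeloid cluster in both libraries, had the largest difference of Vcan among classes with at least 10 UMIs in each library. Vcan had 110 UMIs in room air, or 97.8 CPM (80.4 to 118), and in hyperoxia 666 UMIs at 528 CPM (489 to 570.1). Its ratio of 5.40 (4.41 to 6.67) equals 2.43 on the log2 scale. The Vcan UMIs were spread over many cells, with 34 of 112 positive cells in room air and 106 of 159 in hyperoxia, and the highest cells had 13 and 29 UMIs.

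The share of classical monocyte-like cells with a Vcan UMI was 30.4% (22.0% to 39.8%) and 66.7% (58.8% to 73.9%). Thinned to 2000 UMIs it was 13.8% and 46.5%, with 3 and 4 cells left out, and at 1000 UMIs 8.04% and 34.8%, with 0 and 1 cells left out. In B-like cells, with medians of 4496 and 2918 UMIs, the Vcan share was 1.46% and 0.662%, and at 1000 UMIs 0 of 405 cells and 0.148%. The classical monocyte-like cells of hyperoxia had the higher share at each of the 3 depths. Over all myeloid-like cells Vcan had 19.0 and 61.7 CPM, a ratio of 3.24 (2.68 to 3.94).

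In AT1-like cells, the flat cells of the alveolar surface, Vcan went from 3 UMIs (4.33 CPM) to 41 UMIs (29.3 CPM), a ratio of 6.77 (2.16 to 34.2). In hyperoxia 20 of 268 AT1-like cells had a Vcan UMI, and 1 cell held 12 of the 41. Most AT1-like cells lay in epithelial cluster 2 in room air (63 of 97) and in epithelial cluster 3 in hyperoxia (137 of 268). Cluster 3, with a median of 1151 UMIs per cell, held all 3 room air and 36 of the 41 hyperoxia Vcan UMIs, at 55.7 and 157 CPM, so that the ratio in AT1-like cells also reflects the mix of these clusters.

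Hyaluronan synthases build the polymer. Has2, the synthase needed for heart and vessel development, was mostly endothelial, with 74.8% of its 135 UMIs in ECs in room air and 86.6% of 441 UMIs in hyperoxia. Its EC level was 12.2 CPM (9.95 to 14.8) and 18.4 CPM (16.6 to 20.4), a ratio of 1.51 (1.21 to 1.90). With the EC classes weighted as in room air, the hyperoxia value was 20.9 CPM of Has2.

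Unlike Hapln1, Has2 was highest in gCap-like cells, at 17.5 and 28.4 CPM, with a ratio of 1.63 (1.26 to 2.11). The aCap-like cells had 5 UMIs, 4.28 CPM, and 111 UMIs, 13.1 CPM, a ratio of 3.05 (1.27 to 9.58). In vein-like cells Has2 went from 0 UMIs in room air to 26 UMIs, 18.1 CPM, in hyperoxia, at least 2.15-fold higher against a floor of 3 UMIs per library. Artery-like cells had 1 UMI in each library. Each of the capillary and vein classes thus had more Has2 in hyperoxia, at counts far lower than those of Hapln1.

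The share of ECs with a Has2 UMI was 6.24% and 10.5%, and 2.46% and 3.45% with cells thinned to 2000 UMIs, leaving out 146 and 408 cells. B-like cells had 0 of 410 and 2 of 1360 positive cells. Outside the endothelium only adventitial fibroblast-like cells had over 10 CPM of Has2 in both libraries, at 15.8 and 11.2 CPM, a ratio of 0.713 (0.378 to 1.41).

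In the aCap-like cells of hyperoxia, 39 of the 473 cells with a Hapln1 UMI (8.25%) also had a Has2 UMI, against 6.12% of the 637 cells without Hapln1. The positive cells were deeper, with a median of 9617 against 5300.0 UMIs, and Has2 had 12.1 CPM in cells with and 14.1 CPM in cells without Hapln1. Lyve1 had 671 CPM in these cells with Hapln1 and 733 CPM in those without. In room air, with 43 and 104 aCap-like cells, Lyve1 had 221 and 177 CPM with and without Hapln1, and the 5 Has2 UMIs were too few to compare. In vein-like cells of hyperoxia, 15 of 84 cells with Hapln1 and 0 of 28 without it had a Has2 UMI. The vein-like cells with Hapln1 were deeper, with a median of 13112 against 10765.5 UMIs. Cd44 (67.9% and 35.7%) and Hyal2 (91.7% and 67.9%) were also found in more of them, Hyal1 in 15.5% and 14.3%, and Tnfaip6 in fewer (1.19% and 3.57%).

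Has1 and Has3, the other synthases, did not reach a mean of 10 CPM in any lineage. Has1 was found in the stroma at 3.65 and 4.70 CPM, a ratio of 1.29 (0.907 to 1.87), with the highest levels in adventitial fibroblast-like cells at 12.6 and 13.2 CPM. Alveolar myofibroblast-like cells had 4.98 and 9.22 CPM of Has1, a ratio of 1.85 (1.21 to 2.92). Has3 was near the detection limit, with under 1.4 CPM in every lineage of both libraries, and 16 of its UMIs lay in hyperoxia smooth muscle-like cells (7.82 CPM) against 0 in room air, at least 1.30-fold higher.

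CD44 is a surface receptor for hyaluronan carried by leukocytes and many other cells. Cd44 was highest in myeloid-like cells, at 929 and 972 CPM, a ratio of 1.05 (1.01 to 1.08). This direction did not hold: the log2 ratio of 0.07 became -0.05 with the stricter cell filter and -0.07 without doublet removal. Stromal-like cells had 228 and 256 CPM of Cd44, epithelial-like cells 55.4 and 76.0 CPM, and lymphoid-like cells 107 and 124 CPM. The ratios were 1.12, 1.37 and 1.15. The epithelial ratio covered unlike makeup. The airway-led epithelial cluster 9 (median of 50419 UMIs per cell) held 22 room air and 3 hyperoxia cells, with 37.2 and 56.0 CPM of Cd44. Of the AT2-like clusters, epithelial cluster 0 had 51.6 and 67.1 CPM, cluster 1 70.0 and 73.7 CPM, and cluster 5 446 and 290 CPM. Cluster 5 was mixed: beside Slc34a2 and Sftpc its leading genes included Col10a1, Myog, Ttn and Acta1, named after their values were seen. In room air it held the cartilage genes Col2a1 at 348 CPM and Acan at 237 CPM, and in hyperoxia both were at 0. Its Cd44 level is therefore not read as that of AT2-like cells alone.

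The even myeloid level of Cd44 covered unlike classes. Nonclassical monocyte-like cells had 952 and 1326 CPM, a ratio of 1.39 (1.27 to 1.53). In the main neutrophil-like cluster, myeloid cluster 0 with 97 and 375 cells, the level was 1709 CPM (1708.9) and 2174 CPM (2174.1). The neutrophil-like class as a whole was mixed, since the leading genes of myeloid cluster 10 (15 and 28 cells) included Il12b and Ccl22, of dendritic cells and named after their values were seen. Alveolar macrophage-like cells had 1345 and 999 CPM, a ratio of 0.743 (0.710 to 0.778). These macrophages lay in myeloid cluster 5 in room air (112 of 151) and in myeloid cluster 2 in hyperoxia (309 of 328), whereas the monocytes of both libraries shared clusters.

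Among stromal classes, pericyte-like cells, which wrap capillaries, had Cd44 at 107 CPM (90.4 to 126) and 234 CPM (214 to 255), a ratio of 2.18 (1.81 to 2.64). They lay in stromal cluster 10 in room air (96 of 130) and stromal cluster 8 in hyperoxia (163 of 240), and without doublet removal the log2 ratio of 1.12 was 0.66. Alveolar myofibroblast-like cells had 362 and 529 CPM of Cd44 and smooth muscle-like cells 58.2 and 109 CPM, with ratios of 1.46 and 1.88. Each of these mural and contractile classes had more Cd44 in the hyperoxia library.

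In the ECs Cd44 went the other way, from 47.7 CPM (43.1 to 52.6) to 34.7 CPM (32.2 to 37.4), a ratio of 0.729 (0.644 to 0.826). The direction was not shared by the EC classes. Artery-like cells had 116 and 161 CPM and vein-like cells 64.4 and 85.5 CPM of Cd44, with log2 ratios of 0.47 and 0.41, while gCap-like cells had 36.4 and 26.7 CPM. The aCap-like cells, whose share of EC UMIs was larger in hyperoxia, had the lowest Cd44, at 9.42 and 8.11 CPM, and with the room air makeup the EC log2 ratio was -0.11 in place of -0.46.

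Lyve1 encodes a hyaluronan receptor best known from lymphatic vessels. Here it was mainly a transcript of ECs, lymphatic-like cells included, with 95.7% of its 5788 UMIs (room air) and 97.3% of 21456 UMIs (hyperoxia), at 669.8 CPM (652 to 688) and 1007 CPM (994 to 1021). The ratio was 1.50 (1.46 to 1.55). Artery-like cells had the highest level in both libraries, with 1483 and 2515 CPM, a ratio of 1.70 (1.59 to 1.81).

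The largest Lyve1 ratio among the 4 EC classes was in aCap-like cells, from 194 CPM (170 to 221) to 699.6 CPM (682 to 718), a ratio of 3.60 (3.15 to 4.13). By aCap-like cluster, Lyve1 had 319 and 913 CPM in EC cluster 0, 111 and 276 CPM in cluster 3, and 121 and 665 CPM in cluster 4. The room air value of cluster 4 rested on 6 UMIs. Room air cells lay most often in cluster 3 and hyperoxia cells in cluster 0, and the part of this mix in the ratio was not tested. Vein-like cells had 1044 and 2351 CPM, a ratio of 2.25 (2.02 to 2.51), and gCap-like cells 670.4 and 868 CPM, a ratio of 1.29 (1.24 to 1.35). Lyve1 was therefore higher in hyperoxia in all 4 compared EC classes, and aCap-like cells had the lowest level of the 4 in both libraries.

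The share of aCap-like cells with a Lyve1 UMI was 38.8% (30.9% to 47.2%) and 67.0% (64.2% to 69.8%), and 24.1% and 54.5% with cells thinned to 2000 UMIs, leaving out 31 and 204 cells. In B-like cells it was 1.95% and 3.24%, at 3.73 and 10.3 CPM of Lyve1. Lyve1 was thus more frequent in B-like cells of the hyperoxia library too, at a level far below that of the ECs, and the source of these UMIs was not tested.

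Lymphatic-like cells were not compared, since 15 cells of room air and 27 of hyperoxia were in this cluster and they were not alike. Prox1, the regulator of lymphatic identity, was found in 12 of 15 and in 3 of 27 cells. Glycam1, a gene named after its values were seen, had 0 UMIs in room air and 3710 UMIs in 3 cells of hyperoxia. Lyve1 had 180 UMIs in 9 of the room air cells and 8 UMIs in 4 of the hyperoxia cells.

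Outside the endothelium Lyve1 was at most 26.6 CPM in any lineage, and in myeloid-like cells its direction depended on the cell filter. They had 26.6 and 15.5 CPM, a log2 ratio of -0.78, which became 0.02 with the stricter cell filter and 0.40 as a mean over single cells. The room air UMIs lay in few cells, with 83 UMIs in 8 of 120 neutrophil-like cells, 80 of them in the mixed myeloid cluster 10, and 75 UMIs in 5 of 53 interstitial macrophage-like cells. These macrophages exceeded the lineage level, at 141 and 79.2 CPM of Lyve1, in hyperoxia from 92 UMIs in 18 of 115 cells. Without the highest cell of each library the levels were 71.5 and 62.8 CPM. In neutrophil-like cells the log2 ratio went from -2.35 to 3.25 when double the doublets were removed, so no direction is given for Lyve1 in myeloid-like cells.

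Hyaluronidases cut the polymer, Hyal2 at the cell surface and Hyal1 in lysosomes. Hyal2 was mainly endothelial, with 75.7% of 1109 UMIs (room air) and 82.1% of 3034 UMIs (hyperoxia) in ECs, and its EC level was 101 CPM (94.7 to 109) and 120.2 CPM (116 to 125), a ratio of 1.18 (1.09 to 1.28). The gCap-like cells had 102 and 126 CPM of Hyal2. The artery-like cells, at 114 and 141 CPM, the aCap-like cells, at 103 and 104 CPM, and the vein-like cells, at 207 and 191 CPM, showed no difference beyond counting error, so the EC difference in Hyal2 was not that of Hapln1.

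Stromal-like cells had 16.7 and 11.4 CPM of Hyal2, a ratio of 0.682 (0.569 to 0.818), with 18.6 and 10.1 CPM in Tcf21 fibroblast-like cells. Hyal1 had 19.2 and 18.2 CPM in the ECs, a ratio of 0.948 (0.786 to 1.15). Among the compared EC classes it was highest in aCap-like cells, where it went from 38.5 to 23.9 CPM. This ratio of 0.620 (0.447 to 0.876) was opposite to Hapln1 in the same cells. In hyperoxia the artery-like cells had nearly the same level of Hyal1, 23.1 CPM. In stromal-like cells Hyal1 had 12.4 and 9.54 CPM, a ratio of 0.768 (0.626 to 0.946).

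Tnfaip6 encodes TSG-6, a secreted protein that transfers heavy chains of inter-alpha-inhibitor to hyaluronan. It was found in the stroma at 21.0 CPM (18.4 to 23.8) and 31.7 CPM (29.7 to 33.8), a ratio of 1.51 (1.31 to 1.75). Adventitial fibroblast-like cells had the highest level, 75.7 and 111 CPM, a ratio of 1.47 (1.14 to 1.92), followed among stromal classes by Tcf21 fibroblast-like cells at 22.7 and 28.1 CPM. The main neutrophil-like cluster had 58.7 and 60.2 CPM and classical monocyte-like cells 10.7 and 22.2 CPM of Tnfaip6, the latter from 12 and 28 UMIs. ECs had 3 and 5 UMIs of Tnfaip6, so the endothelium was nearly without it.

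**Figure D3:**
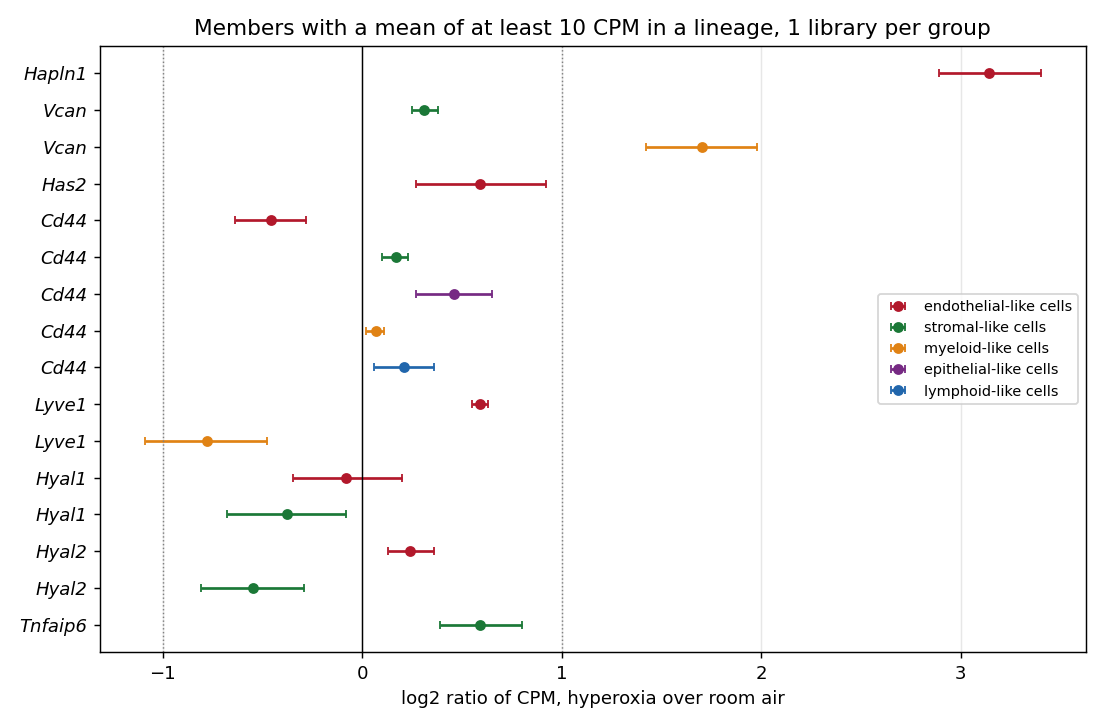
Log2 ratio of hyperoxia over room air for each member in each lineage where its mean over the libraries was at least 10 CPM; bars are exact 95% conditional intervals for counting error and dotted lines mark ratios of 2 and 1/2. Hapln1 in ECs (3.14) and Vcan in myeloid-like cells (1.70) lie beyond the dotted lines, and the interval of Lyve1 in myeloid-like cells, whose direction flips with the cell filter, crosses the lower line.

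Of the 10 members, 8 had a mean of at least 10 CPM in at least 1 lineage, and Has1 and Has3 did not. In the ECs 6 of the 10 passed this filter, and 1, Hapln1, had a ratio of at least 2, where 1.80% of 8428 genes did; 0 had a ratio of at most 1/2, where 3.04% of genes did. Since Hapln1 was chosen on this comparison, nothing is read from that count. In stromal-like cells 0 of 5 members had a ratio of at least 2 (1.60% of 8777 genes) or at most 1/2 (1.30%).

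In myeloid-like cells 1 of 3 members, Vcan, had a ratio of at least 2 (1.38% of 7688 genes) and 0 of at most 1/2 (2.61%). In epithelial-like and lymphoid-like cells Cd44 alone passed the filter, with a ratio between 1/2 and 2. There 1.03% and 0.806% of genes had a ratio of at least 2, and 4.10% and 0.476% a ratio of at most 1/2. The members that passed are those with enough UMIs, and they do not stand for all 10.

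By EC class, Hapln1 and Lyve1 were the 2 of 4 members past a ratio of 2 in aCap-like cells, where 2.41% of genes had a ratio of at least 2 and 2.64% a ratio of at most 1/2. The same 2 genes, of 5 members that passed, were past 2 in vein-like cells (8.15% and 7.16%), and Hapln1 was the 1 of 6 in gCap-like cells (2.02% and 2.50%). Nothing is read from the place of Hapln1 in these counts, since it was chosen on its rise in ECs. In gCap-like cells, at 1.23 and 24.5 CPM, it passed the filter only through hyperoxia. In artery-like cells 0 of 4 members were past either bound (5.66% and 5.53%). The larger percentages in the classes with few cells include more counting error.

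Other genes of the hyaluronan matrix were taken from 9 lists of 53 genes that include the members, and all 53 were in the files. Outside the 10 members, 19 of 43 had a mean of at least 10 CPM in the ECs. Of these, 0 had a ratio of at least 2 (1.80% of all genes) and 2 had a ratio of at most 1/2 (3.04%). The 2 lower genes were Hmmr, an intracellular hyaluronan-binding protein of dividing cells, at 23.3 and 1.30 CPM, and Tnc, at 14.8 and 5.40 CPM. Tnc encodes a matrix glycoprotein that binds versican. Both passed the filter only through their room air level. The 8 markers of dividing cells, all detected, summed to 551 and 60.3 CPM in the same ECs and moved with Hmmr.

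Of the enzymes that supply the sugar precursors, 6 passed the filter in the ECs and 0 of them had a ratio of at least 2 or at most 1/2. Ugdh, which makes UDP-glucuronic acid, had 26.1 and 14.8 CPM, while Gnpnat1, of the glucosamine branch, had 15.5 and 29.8 CPM. The surface hyaluronidase Tmem2 had 630.2 and 553 CPM in the ECs, and the scavenger receptor Stab1 127 and 115 CPM. Adamts9, a versican-cleaving protease, had 153 and 100.2 CPM, and Adamts1, of the same family, 559 and 500.3 CPM. The EC level of every listed gene outside the members was therefore less than 2 times as high in hyperoxia, if it passed the filter.

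In stromal-like cells 23 of the 43 other genes passed the filter, and 0 had a ratio of at least 2 (1.60% of all genes) or at most 1/2 (1.30%). Adamts1 had 343 and 623 CPM, a ratio of 1.82 (1.76 to 1.88), and Adamts15 49.7 and 88.0 CPM, while Cemip, a hyaluronan-degrading protein, had 66.6 and 36.4 CPM, a ratio of 0.546 (0.497 to 0.600). Itih4 had 19.1 and 31.7 CPM and Itih5, of the same heavy chain family, 194 and 133 CPM. Of the other versican-cleaving proteases that passed in the stroma, Adamts4 had 24.4 and 38.8 CPM, Adamts9 129 and 148 CPM and Adamts5 109.6 and 82.8 CPM.

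In epithelial-like cells 1 of 16 other genes, Adamts5, had a ratio of at most 1/2 (4.10% of all genes), with 25.2 and 1.62 CPM. In myeloid-like cells 2 of 14 did (2.61% of all genes), Gfpt1 at 99.0 and 46.9 CPM and Hmmr at 18.4 and 6.60 CPM. In lymphoid-like cells 1 of 11 did (0.476% of all genes), Hmmr at 39.0 and 17.7 CPM. In these 3 lineages 0 of the other genes that passed had a ratio of at least 2, where 1.03%, 1.38% and 0.806% of all genes did. The epithelial-like cells differed in makeup, with 22 room air and 3 hyperoxia cells in the airway-led epithelial cluster 9. The part of this makeup in the Adamts5 values was not tested.

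Relative to the median of all genes, these ratios change little by lineage, since that median was 0.00 on the log2 scale in ECs and -0.10 in myeloid-like cells. Scaling by the median of ratios moved the ratios by 0.11 in ECs and 0.13 in myeloid-like cells, and TMM factors by 0.10 and 0.13. With 1 pooled library per group, oxygen cannot be told apart from any other difference between the 2 libraries.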

How the data were processed

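The deposited values are UMI counts that the authors made with Cell Ranger and mm10 (version 3.1.0 in the matrix headers, 2.1.1 and 6.1.1 in the labels), without normalization. Barcodes needed 500 or more detected genes, and mitochondrial UMIs could not exceed 20%. Doublets were ranked against simulated pairs and removed at 0.8% per 1000 barcodes (3.39% in room air, 10.6% in hyperoxia). Cells were clustered on 30 principal components of 2000 variable genes (scikit-learn 1.9.0, igraph 0.11.9, leidenalg 0.10.2, resolution 1), then again within each lineage, and named from listed markers by a rule that was changed after clusters had been seen. Members and lists were chosen with earlier results of these data known. Counts were summed per class and library (Python 3.11.15, numpy 2.4.6, scipy 1.17.1, pandas 2.3.3), with exact Poisson, conditional and Clopper-Pearson 95% intervals; where a count was 0, 3 UMIs were used. Genes with a mean of at least 10 CPM were called at ratios of at least 2 or at most 1/2. Genes named are the members, listed hyaluronan genes with a mean of at least 10 CPM in a lineage, the 8 genes most like Hapln1 and markers, beside those said to be chosen later. TMM factors came from edgeR 4.0.16 (R 4.3.3), figures from matplotlib 3.10.9.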

Additional observations from a re-analysis of the deposited data

Results flagged for a closer look

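For 3 members the log2 ratios of hyperoxia over room air had opposite signs in different lineages, with counting intervals that excluded a ratio of 1 on each side; the difference between lineages was not tested, since each group had 1 library. Cd44 had a log2 ratio of 0.17 in stromal-like, 0.46 in epithelial-like, 0.07 in myeloid-like and 0.21 in lymphoid-like cells, and of -0.46 in endothelial-like cells. The epithelial value covered unlike makeup, with 22 room air and 3 hyperoxia cells in the airway-led epithelial cluster 9. In AT1-like cells the sign depended on the processing. The myeloid sign was lost with the stricter cell filter (-0.05) and without doublet removal (-0.07), and in endothelial-like cells without stromal UMIs the value was -0.14 (-0.49 to 0.23). Hyal2 had a log2 ratio of 0.24 in endothelial-like and -0.55 in stromal-like cells. Lyve1 had 0.59 in endothelial-like and -0.78 in myeloid-like cells. The myeloid sign was lost with the stricter cell filter (0.02) and as a mean over single cells (0.40), so no direction is given for Lyve1 there.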

How the results depend on the processing

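For 28 results the log2 ratio was taken again under other settings. These were other cell filters (1000 or more genes, with no more than 10% mitochondrial UMIs), no doublet removal, and double the doublets removed. Clustering was run at resolutions of 0.5 and 2, and with each library clustered on its own. Ratios were also taken with TMM factors, the median of ratios or reduced totals, and as a mean over single cells. Some settings gave no value in AT1-like cells, where Vcan had 5 alternatives and Cd44 had 9. Ratios outside the 28 were not taken again. No paired analysis was possible because the result comes from no test, with 1 library per group. For every value that moved or reversed, the cause was not tested.

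Hapln1 in ECs was 3.14. It was 2.22 for hyperoxia at the EC makeup of room air, 1.36 within aCap-like, 4.31 within gCap-like and 4.57 within vein-like cells. Has2 in ECs was 0.59, and within aCap-like cells it was 1.61. Within artery-like cells it was -0.88 (-7.17 to 5.42) from 1 UMI in each library, so no direction is read there. Hyal1 in ECs was -0.08 (-0.35 to 0.20), with no clear sign: it was 0.02 with TMM factors, 0.03 with the median of ratios and 0.01 as a mean over single cells. It was -0.69 within aCap-like, 0.51 (-0.45 to 1.56) within artery-like and -0.50 (-1.79 to 0.99) within vein-like cells. Hyal2 in ECs was 0.24, with 0.02 within aCap-like and -0.12 within vein-like cells (reversed).

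Lyve1 in ECs was 0.59 and kept its direction. It was 0.54 without doublet removal, 0.37 with double the doublets removed, 0.53 with each library clustered on its own, 0.69 with TMM factors, 0.70 with the median of ratios, 0.43 as a mean over single cells, 0.63 in ECs without stromal UMIs and 0.64 at the makeup of room air. Within classes it was 1.85 (aCap-like), 0.37 (gCap-like), 0.76 (artery-like) and 1.17 (vein-like). Cd44 in ECs was -0.46. It was -0.27 without doublet removal, -0.72 with double the doublets removed, -0.14 (-0.49 to 0.23) in ECs without stromal UMIs, -0.11 at the makeup of room air and -0.21 within aCap-like cells, and reversed to 0.47 within artery-like and 0.41 (-0.24 to 1.12) within vein-like cells.

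Cd44 in myeloid-like cells was 0.07. It reversed to -0.05 with the stricter cell filter and -0.07 without doublet removal, and was 0.20 with TMM factors, 0.20 with the median of ratios and 0.31 as a mean over single cells. Lyve1 in myeloid-like cells was -0.78 and reversed to 0.02 with the stricter filter and 0.40 as a mean over single cells. Cd44 in AT1-like cells was 1.02 and reversed to -0.49 with the stricter filter, -0.22 without doublet removal and -0.54 with each library clustered on its own. Lyve1 in neutrophil-like cells was -2.35 and reversed to 0.84 with the stricter filter, 3.25 with double the doublets removed, 2.15 at resolution 0.5 and 1.83 with each library clustered on its own. Vcan (0.31) and Tnfaip6 (0.59) in stromal-like cells did not move in the settings run for them. These held no value within stromal classes or at the room air makeup of the stroma.

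The percent of all genes past a ratio of 2 depended on the filter on low values. With at least 1 UMI, 11.9% of genes in ECs had a ratio of at least 2 and 17.2% of at most 1/2; the values were 14.6% and 9.89% in stromal-like, 11.3% and 18.4% in epithelial-like, 11.5% and 13.8% in myeloid-like, and 17.7% and 8.38% in lymphoid-like cells. With a mean of at least 50 CPM, 1.84% of genes in ECs had a ratio of at most 1/2, and in lymphoid-like cells 0.277% had at least 2 and 0.312% at most 1/2.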
